A study of Rattus norvegicus with 12 samples.

Results

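The receptor chains that bind the added cytokines were followed in rat mixed glia exposed for 6 hours to mixtures typical of Th1 lymphocytes, monocyte/macrophages or Th2 lymphocytes. The 9 genes considered were Il1r1, Il1r2, Il6r, Il6st, Tnfrsf1a, Il4r, Ifngr1, Il2rg and Il2rb, and they were found by their symbols in the annotation of the array. Of these, 8 were measured, among 4736 genes named by a single symbol, and they had 11 of the 8740 probe sets tested. Il1r1 alone had 4 of the 11. Il2rg, the chain shared by the receptors for IL-2 and IL-4, was not analysed here because no probe set carried its symbol.

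The study asked how glia respond early to the secreted products of different immune cells. Glial cultures from the brains of newborn rats were treated in 3 separate experiments, each with a Th1, an M/M, a Th2 and a control culture, and each culture was measured on its own Affymetrix rat expression array, giving 12 arrays. Each cytokine was added at 10 ng/ml to defined medium with 2% fetal bovine serum, and control cultures had the same medium with serum and no added cytokine. The Th1 mixture held IL-2, interferon-gamma, TNF-alpha and G-CSF. The labels list IL-1alpha, IL-1beta, IL-12p40 and TNF-alpha for the M/M mixture, to which the methods add IL-6. For the Th2 mixture they list porcine TGF-beta1, G-CSF, IL-10 and IL-5, and the methods add IL-4. Every mixture therefore held several ligands, and a difference from control cannot be assigned to any single one. The cultures held astrocytes, oligodendrocytes and their precursors with some microglia, so that a value is an average over several cell types. Fewer cells of a type and less RNA per cell cannot be told apart in such a sample.

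Most cytokine receptors are assemblies in which one chain binds the ligand and another carries the signal into the cell. The IL-1 and TNF receptors lead to NF-kappaB, whereas the receptors for IL-2, IL-4, IL-6 and interferon-gamma act through Janus kinases and STAT factors. In the CNS, astrocytes and microglia are well-known targets of IL-1, TNF-alpha and interferon-gamma, and the receptor chains a cell carries shape which of these ligands it can respond to.

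The arrays differed in ways that touch every receptor, and these come before the results. The median signal of an array ranged between 24.5 and 61.0. In experiment 2 the median was 61.0 on the Th1 array, 57.9 on the M/M array and 56.1 on the Th2 array, against 38.4 on the control array. The median log2 difference of all probe sets was 0.14 for Th1 cytokines, 0.33 for M/M cytokines and 0.19 for Th2 cytokines against control. A receptor value near these medians moved no more than the typical probe set did, and receptor estimates are also given after each array was centred on its own median.

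The arrays of experiment 3 also went against their labels. Over 4370 brighter probe sets, each treated array was set against the mean of the treated arrays of its experiment. The same mixture in experiments 1 and 2 gave correlations of 0.57 for Th1 cytokines, 0.64 for M/M cytokines and 0.75 for Th2 cytokines. The experiment 3 array labelled Th1 instead had correlations of -0.44 and -0.37 with the Th1 arrays, against 0.58 and 0.58 with the Th2 arrays. The array labelled M/M had 0.067 and 0.099 with the M/M arrays, against 0.53 and 0.41 with the Th1 arrays. The array labelled Th2 had -0.23 and -0.30 with the Th2 arrays, against 0.42 and 0.36 with the M/M arrays. These correlations run across probe sets that share arrays and are descriptions. Removal of the mean of the treated arrays ties them together, so that a high correlation with a mixture lowers those with the others. The negative values are therefore partly built in. The deposited values of experiment 3 also had another form. They had at most 1 decimal in 100% of cases on its arrays, against 12.1% to 13.1% on the arrays of experiments 1 and 2. A signal below 1 was listed for 167 to 403 probe sets on an array of experiment 3, against 0 to 3, and a signal of exactly 1 for 30 to 63, against 200 to 249. Whether experiment 3 was processed apart from the others is not given in the sources used here, so that its biology and its processing cannot be told apart where it was dimmer.

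Genes that interferon-gamma is known to induce, such as the transcription factor Irf1, showed the same mismatch. The median log2 difference of 9 such genes from control was 3.13 and 4.23 on the Th1 arrays of experiments 1 and 2, and -0.30 on the experiment 3 array labelled Th1. On the arrays labelled M/M it was 0.48, 1.20 and 3.88 in experiments 1, 2 and 3. On those labelled Th2 it was -0.35, 0.14 and 0.91. For 11 genes of the IL-1 and TNF response, which include the chemokine Ccl2, the arrays labelled Th1 had 2.18, 2.03 and -0.17 and those labelled Th2 had 0.21, 0.49 and 2.54. The arrays labelled M/M had 2.66, 2.80 and 2.88 and showed no such mismatch in this list. No array was moved to another group. Where 3 values are given for a mixture, they are those of experiments 1, 2 and 3 under the labels. Estimates of the receptors against control are given over all 3 experiments and without experiment 3.

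**Figure D1:**
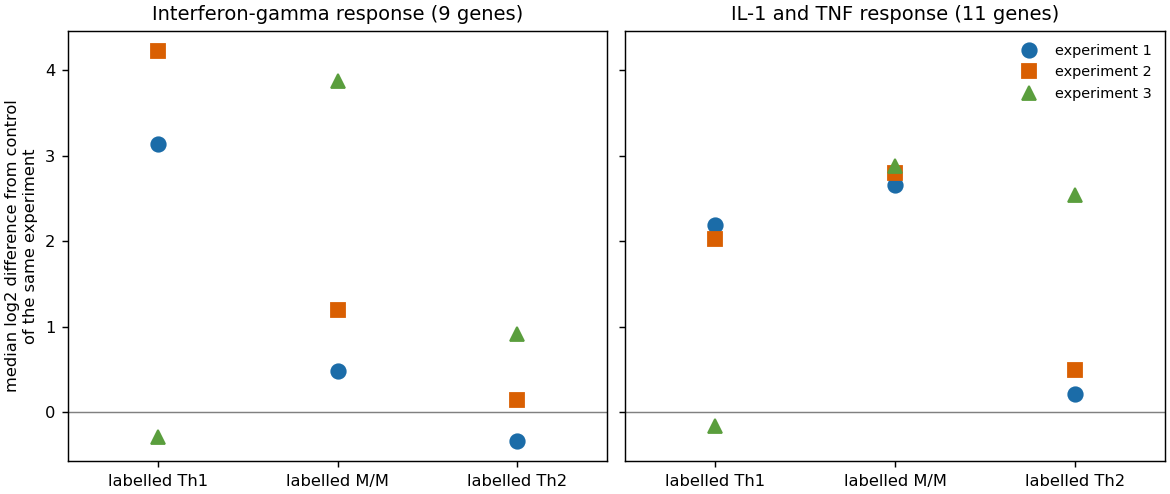
Median log2 difference from the control array of the same experiment for 9 interferon-gamma response genes and 11 IL-1 and TNF response genes, with a point for each treated array under its label. The interferon-gamma genes lie at 3.13 and 4.23 on the Th1 arrays of experiments 1 and 2 and at -0.30 on the experiment 3 array labelled Th1.

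Across the receptors, none of the 11 probe sets passed an adjusted p of 0.05 in any of the 6 comparisons over all 12 arrays, by limma with the experiment as a block. Against control, 0% of all probe sets passed for Th1 cytokines, 0.263% for M/M cytokines and 0.0114% for Th2 cytokines, and 0% passed in each comparison of a mixture with another. At an unadjusted p under 0.05 there were 0 receptor probe sets for Th1 cytokines, 2 for M/M cytokines and 1 for Th2 cytokines, where 5.56%, 15.9% and 6.75% of all probe sets reached it. The estimate was above 0 for 6 of 11 with Th1 cytokines and for 9 of 11 with each of the other mixtures, against 65.4%, 78.1% and 69.3% of all probe sets. The median estimate over the 11 was 0.0042, 0.38 and 0.39, with 0.14, 0.33 and 0.19 over all probe sets. With centred arrays the estimate was above 0 for 4, 3 and 7 of the 11. By the criteria of the methods, over 2-fold with an analysis of variance p under 0.2, 1 probe set of the 11 was higher for M/M cytokines against control (6.35% of all probe sets) and 1 was lower for M/M against Th2 cytokines (0.847% of all), both of Il1r1.

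**Figure D2:**
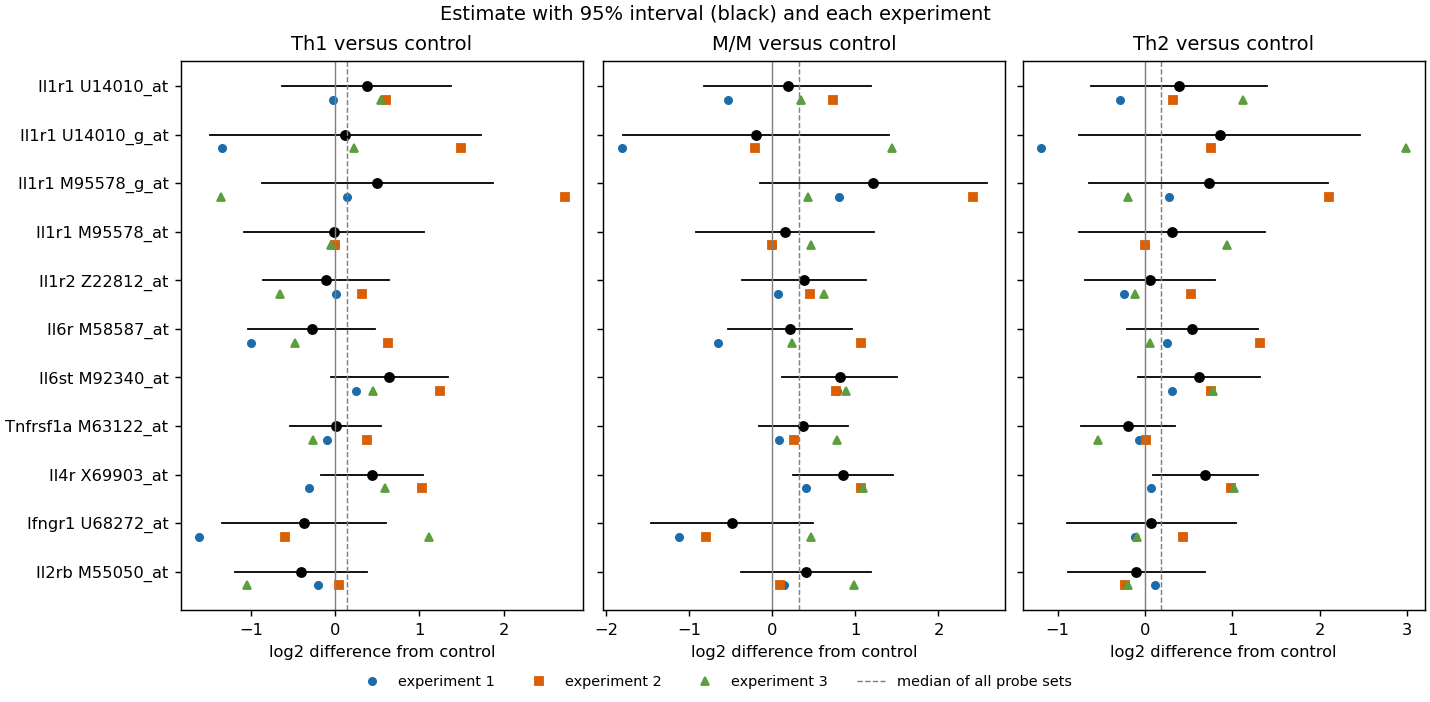
Log2 difference from control of each receptor probe set, in a panel for each mixture. Black points are limma estimates over 3 experiments with 95% intervals, coloured markers are the single experiments, and the dashed line is the median of all probe sets (0.14, 0.33 and 0.19). The intervals of Il4r lie above 0 in the M/M and Th2 panels, and the experiment 3 marker of Ifngr1 lies on the other side of 0 from experiments 1 and 2 in the Th1 and M/M panels.

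The IL-4 receptor had the lowest unadjusted p of the receptors against control. Il4r encodes the chain that binds IL-4, and its ligand was in the Th2 mixture according to the methods. Its signal was 93.6, 123 and 99.8 with Th1 cytokines in experiments 1, 2 and 3. It was 154, 126 and 142 with M/M and 121, 119.6 and 135 with Th2 cytokines. The controls had 116, 60.2 and 66.5. Every M/M and Th2 array was above every control array, and only the Th1 array of experiment 1 was below its own control. Groups were separated upward in this way for 7.48% of all probe sets with M/M and for 2.77% with Th2 cytokines.

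The log2 difference of Il4r was 0.86 ± 0.28 (SE, 3 experiments) for M/M cytokines, with a 95% interval of 0.25 to 1.46, an unadjusted p of 0.00891 and an adjusted p of 0.202 by limma. For Th2 cytokines it was 0.69 ± 0.28, with an interval of 0.089 to 1.29 and an adjusted p of 0.715 by limma. For Th1 cytokines it was 0.44 ± 0.28, with an interval of -0.17 to 1.04. These comparisons use the same control arrays and are not independent of each other. In experiment 1 the difference was only 0.065 for Th2 cytokines, whereas it was 0.99 and 1.02 in experiments 2 and 3. With centred arrays the estimates were 0.28 for Th1 cytokines, 0.43 for M/M cytokines and 0.48 for Th2 cytokines. Without experiment 3 they were 0.36, 0.74 and 0.53. No difference between mixtures passed the test for Il4r. Every Th1 array was below every M/M array, as for 2.72% of all probe sets, with an estimate of -0.42 ± 0.28 and an interval of -1.02 to 0.18. Th1 against Th2 gave -0.26 with an interval of -0.86 to 0.35, and M/M against Th2 gave 0.17 with an interval of -0.44 to 0.77.

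Il4r lies on chromosome 1 at chr1:189545739-189570639 in the GRCr8 assembly, on the plus strand. The RefSeq promoter tables held windows for 7 of the 9 genes, and the bases ahead of the annotated gene start are shown for Il4r and Ifngr1, the receptors on which the results turn. The 214 bases at chr1:189545525-189545738 (plus strand) follow, 5′ to 3′, and capitals mark motif matches.
Il4r: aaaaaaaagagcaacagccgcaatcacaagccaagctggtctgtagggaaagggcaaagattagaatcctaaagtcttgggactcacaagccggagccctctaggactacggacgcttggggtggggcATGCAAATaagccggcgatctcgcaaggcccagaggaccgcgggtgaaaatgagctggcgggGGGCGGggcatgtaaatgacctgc
Searched on both strands were the GC box (GGGCGG), the octamer (ATGCAAAT), the GAS element that STAT factors bind (TTCNNNGAA) and the TATA box (TATAAA). The Il4r bases held 1 octamer and 1 GC box. Of 33469 promoter windows cut to their first 214 bases, 1.4% contain the octamer and 26.4% the GC box. The cut windows of other genes need not reach their gene start. A match is a description of letters and no measurement of binding.

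**Figure D3:**
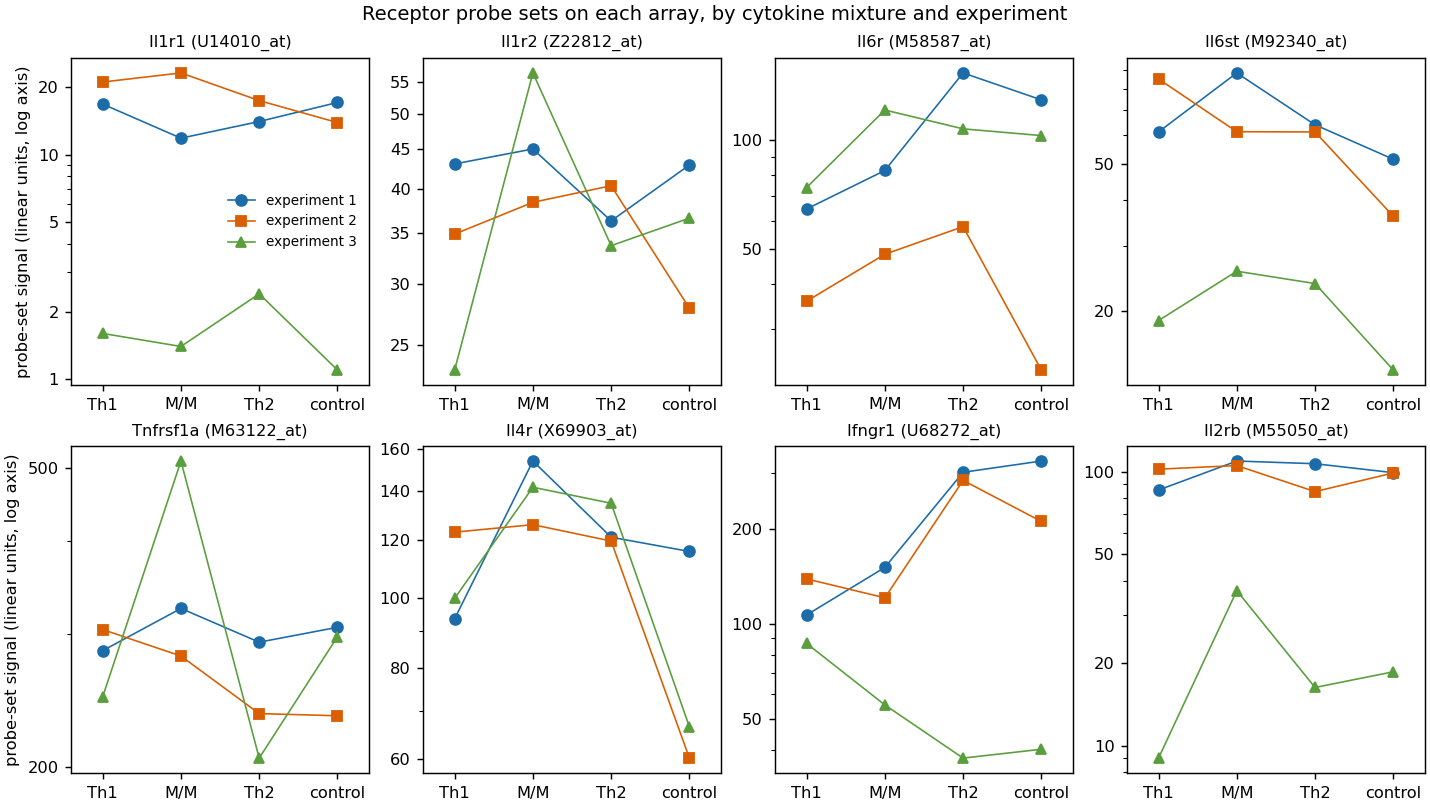
Deposited signal of 8 receptors on a log axis for Th1, M/M, Th2 and control arrays, with 1 probe set for each gene and a line for each experiment. Il4r lies between 119.6 and 154 on all M/M and Th2 arrays and between 60.2 and 116 on the controls, while Ifngr1 in experiment 3 lies between 37.7 and 86.8, below its range in the other experiments.

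The interferon-gamma receptor differed widely between experiments. Ifngr1 encodes the chain that binds interferon-gamma, a constituent of the Th1 mixture alone. Its signal with Th1 cytokines was 107 and 139 in experiments 1 and 2 and 86.8 on the experiment 3 array labelled Th1. With M/M cytokines it was 151 and 121, and 55.5 on the array labelled M/M in experiment 3. With Th2 cytokines it was 301 and 284, and 37.7 on the array labelled Th2, and the controls had 327, 211 and 40.2. In experiments 1 and 2 each Th1 and each M/M array lay below the control of its own experiment. In experiment 3 the arrays labelled Th1 and M/M lay above the control.

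Relative to the control of its own experiment, Ifngr1 was at ratios of 0.326, 0.658 and 2.16 with Th1 and at 0.461, 0.574 and 1.38 with M/M cytokines. With Th2 cytokines the ratios were 0.921, 1.35 and 0.938. Over all 12 arrays the log2 difference from control was -0.37 ± 0.45 for Th1 (SE, 3 experiments, 95% interval -1.34 to 0.60), -0.48 ± 0.45 for M/M (-1.46 to 0.49) and 0.073 ± 0.45 for Th2 cytokines (-0.90 to 1.05). The adjusted p was 0.911, 0.606 and 0.974 by limma, and the estimates ran against the medians of all probe sets for Th1 and M/M cytokines.

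Over experiments 1 and 2 the Ifngr1 differences were -1.11 ± 0.27 for Th1 cytokines, -0.96 ± 0.27 for M/M cytokines and 0.16 ± 0.27 for Th2 cytokines (SE, 2 experiments), and the adjusted p was 0.243, 0.322 and 0.818 by limma. Of all probe sets, 0.664% passed for Th1 cytokines, 0.389% for M/M cytokines and 0% for Th2 cytokines in this fit, and 0 receptor probe sets did. When the arrays were also centred, a setting chosen after the data were seen, Ifngr1 fell by 1.42 ± 0.17 with Th1 cytokines (adjusted p = 0.00756 by limma) and by 1.28 ± 0.17 with M/M cytokines (adjusted p = 0.0167 by limma). The share of all probe sets that were lower and passed was then 0.229% and 0.412%. With Th2 cytokines the centred estimate was -0.11, with an adjusted p of 0.795 by limma. With centring but with experiment 3 kept, the estimates were -0.53 for Th1 cytokines, -0.91 for M/M cytokines and -0.14 for Th2 cytokines and none passed. The call thus rests on leaving out experiment 3 and on the scaling together.

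The mixtures were also compared directly, without the control arrays. Ifngr1 with Th1 against Th2 cytokines had log2 differences of -1.50, -1.03 and 1.20 in experiments 1, 2 and 3, and with M/M against Th2 cytokines it had -0.998, -1.23 and 0.56. Over all arrays these gave -0.44 and -0.56 with an adjusted p of 1 and 0.998 by limma. Over experiments 1 and 2 they gave -1.27 ± 0.27 and -1.12 ± 0.27 with an adjusted p of 0.259 and 0.481, where 0.469% and 0.263% of all probe sets passed. With centred arrays the same estimates were -1.31 and -1.17, with an adjusted p of 0.0127 and 0.0312 by limma, and 0.0915% and 0.0801% of all probe sets were lower and passed. Th1 against M/M cytokines differed by -0.15 ± 0.27 over experiments 1 and 2.

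Ifngr1 lies at chr1:16152811-16171439 in GRCr8 on the plus strand. The 151 RefSeq bases ahead of it, at chr1:16152660-16152810 (plus strand), are shown 5′ to 3′ with the motif match in capitals.
Ifngr1: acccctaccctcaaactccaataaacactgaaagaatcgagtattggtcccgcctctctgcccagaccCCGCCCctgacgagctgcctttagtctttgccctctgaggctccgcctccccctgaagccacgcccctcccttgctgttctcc
The match is a GC box on the minus strand, which 16.6% of windows hold when cut in the same way to their first 151 bases. The letters of the other 3 motifs were not found in these bases. Of the other genes, only Tnfrsf1a and Il2rg had such bases ahead of the annotated gene, and neither held any of the 4 motifs.

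**Figure D4:**
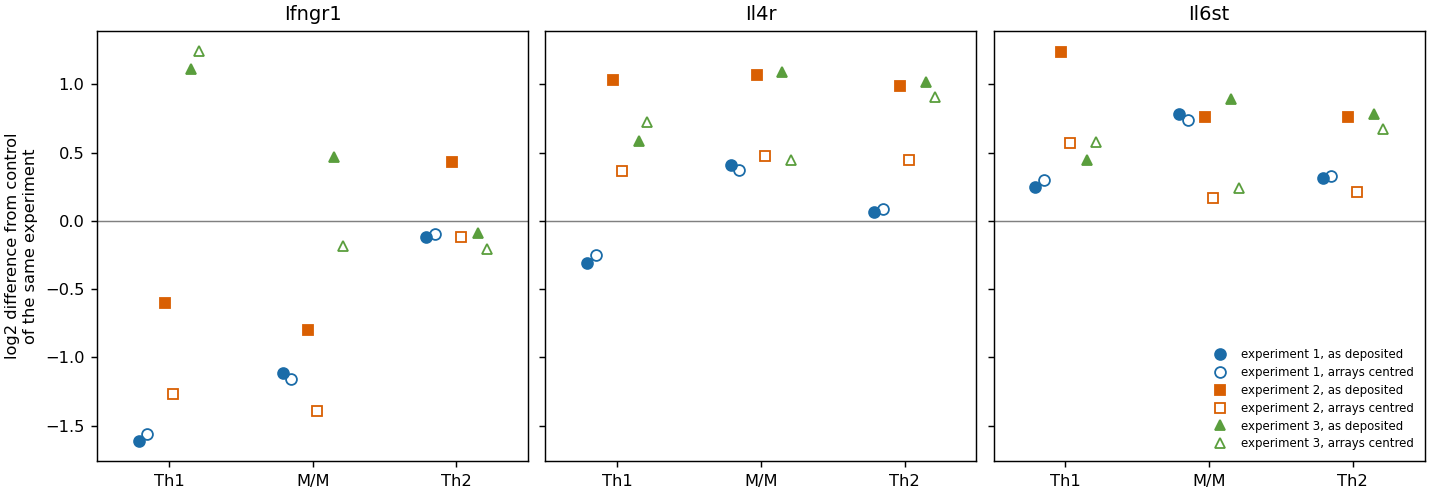
Log2 difference from the control of the same experiment for Ifngr1, Il4r and Il6st, as deposited (filled) and with arrays centred on their medians (open), by labelled mixture and experiment. For Ifngr1 the deposited Th1 values are -1.62, -0.60 and 1.11 and the M/M values -1.12, -0.80 and 0.47.

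The chains of the IL-6 receptor were measured separately. Il6st encodes gp130, the signal-carrying chain that IL-6 shares with leukemia inhibitory factor and related cytokines. Its signal was 61.2, 85.2 and 18.8 in Th1 cultures, 88.5, 61.3 and 25.6 in M/M cultures and 64.0, 61.2 and 23.7 in Th2 cultures, against 51.6, 36.1 and 13.8 in controls. Within each experiment every treated array was above its control, by 1.24 at most on the log2 scale, although the groups overlap across experiments and experiment 3 was dimmer. A probe set was higher in 3 of 3 experiments in 14%, 32% and 25% of all cases for Th1, M/M and Th2 cytokines.

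The log2 difference of Il6st was 0.81 ± 0.32 for M/M cytokines (SE, 3 experiments), with a 95% interval of 0.12 to 1.51, an unadjusted p of 0.0257 and an adjusted p of 0.267 by limma. It was 0.64 ± 0.32 for Th1 (-0.052 to 1.34) and 0.62 ± 0.32 for Th2 cytokines (-0.079 to 1.31), and these 3 estimates share their controls. With centred arrays they were 0.48 for Th1 cytokines, 0.38 for M/M cytokines and 0.40 for Th2 cytokines. Each treated array still lay above its control, though how many of all probe sets did so after centring was not counted. Without experiment 3 the Il6st estimates were 0.74, 0.77 and 0.54.

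Markers of the glial cell types also differed between the arrays. For 6 measured microglial genes of 10 listed, the median log2 difference from control was -0.14, 0.58 and 0.058 in Th1 cultures, -0.15, 0.24 and 0.92 in M/M cultures and -0.0044, 0.29 and 0.35 in Th2 cultures. For 6 measured astrocyte genes of 7 it was -0.31, 0.54 and 0.35 in Th1 cultures, -0.15, 0.28 and 0.72 in M/M cultures and -0.15, 0.23 and 0.34 in Th2 cultures. For 6 measured oligodendrocyte genes of 7 it was -0.16, 0.44 and 0.36 in Th1 cultures, -0.032, 0.12 and 0.89 in M/M cultures and -0.18, 0.25 and 0.62 in Th2 cultures. For 3 measured oligodendrocyte precursor genes of 5 it was -0.10, 0.37 and -0.11 in Th1 cultures. It was 0.19, -0.074 and -0.045 in M/M cultures and -0.18, -0.10 and -0.17 in Th2 cultures. As deposited, the microglial, astrocyte and oligodendrocyte lists were thus below the control in experiment 1 and above it in experiments 2 and 3. The precursor list did not follow this pattern. Whole-array medians (Th1, M/M, Th2, control) were 57.0, 60.9, 58.4 and 59.1 in experiment 1 and 61.0, 57.9, 56.1 and 38.4 in experiment 2. In experiment 3 they were 24.5, 42.2, 29.05 and 26.9. With centred arrays the astrocyte estimates over 3 experiments had medians of 0.033, -0.097 and -0.056 for Th1, M/M and Th2 cytokines. The oligodendrocyte medians were then 0.078, -0.15 and -0.013, and the precursor medians 0.011, -0.48 and -0.36. As deposited, Il4r was also farther above its control in experiments 2 and 3. With centred arrays its differences were 0.37, 0.47 and 0.44 for M/M cytokines in experiments 1, 2 and 3. They were -0.25, 0.36 and 0.72 for Th1 cytokines and 0.084, 0.44 and 0.91 for Th2 cytokines.

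The summed microglial signal was 2776 to 4197 with Th1, 2816 to 4219 with M/M and 2667 to 4344 with Th2 cytokines, against 1859 to 4277 in controls. Most of it came from the complement gene C1qb, which had 1167 to 2964 in controls. On the experiment 3 array labelled Th1, Aif1, Itgam and Csf1r had 546, 11.2 and 4.8, below 571, 12.2 and 7.9 in the control, while C1qb, Cx3cr1 and Ptprc were above it. With centred arrays the median microglial estimates over 3 experiments were 0.16, 0.012 and 0.22. No marker gene of these glial cell types passed the test, and the part of cell composition in the receptor values was not tested.

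Il6r, which encodes the chain that binds IL-6, had no common direction. Its signal was 64.6, 35.9 and 74.0 in Th1 cultures, 82.5, 48.4 and 121 in M/M cultures and 153, 57.7 and 108 in Th2 cultures, against 129, 23.2 and 103 in controls. The estimates were -0.28 ± 0.35 for Th1 cytokines, 0.22 ± 0.35 for M/M cytokines and 0.54 ± 0.35 for Th2 cytokines. Without experiment 3 they were -0.19, 0.21 and 0.78. With centred arrays they were -0.44, -0.21 and 0.33, so that the direction for M/M cytokines turned. Th1 was below Th2 in all 3 experiments, with log2 differences of -1.25, -0.68 and -0.54, and the estimate of -0.82 ± 0.35 had an interval of -1.57 to -0.075 and an unadjusted p of 0.0336. Its adjusted p was 1 by limma, and 1.85% of all probe sets reached an unadjusted p under 0.05 in that comparison. A probe set was lower with Th1 than with Th2 cytokines in 3 of 3 experiments in 13.1% of all cases.

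The TNF receptor was the steadiest of the receptors between control cultures. Tnfrsf1a encodes the widely expressed receptor that carries most TNF-alpha signals, and its ligand was in the Th1 and M/M mixtures. Its signal was 285, 305 and 248 in Th1 cultures, 325, 281 and 511 in M/M cultures and 293, 235 and 205 in Th2 cultures, against 307, 234 and 298 in controls. The value of 511, on the experiment 3 array labelled M/M, stood apart from the others. The estimates were 0.0042 ± 0.25 for Th1 (95% interval -0.53 to 0.54), 0.38 ± 0.25 for M/M (-0.16 to 0.91) and -0.20 ± 0.25 for Th2 cytokines (-0.74 to 0.34). Without experiment 3 they were 0.14, 0.17 and -0.028. With centred arrays they were -0.16, -0.052 and -0.41, so that the directions for Th1 and M/M cytokines turned, and the value for Th2 cytokines had an unadjusted p of 0.0308 and an adjusted p of 0.628 by limma. M/M against Th2 gave 0.57 ± 0.25, with an unadjusted p of 0.0389 and an adjusted p of 0.998 by limma, and 3.92% of all probe sets reached an unadjusted p under 0.05. That difference was 0.20 ± 0.18 over experiments 1 and 2.

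The IL-1 receptors bind the ligands IL-1alpha and IL-1beta of the M/M mixture. Il1r1 encodes the signalling receptor, and its 4 probe sets were dim, with median percentiles of 28.8, 16.2, 17.3 and 1.46 among the probe sets of the control arrays. The probe set U14010_at had 16.8, 21.0 and 1.6 in Th1 cultures, 11.8, 23.1 and 1.4 in M/M cultures and 14.0, 17.4 and 2.4 in Th2 cultures, against 17.0, 13.9 and 1.1 in controls. The experiment accounted for 96.4% of its sum of squares, and the 4 groups overlap. The probe set U14010_g_at had 10.0, 12.3 and 2.8 in Th1 cultures, 7.29, 3.79 and 6.5 in M/M cultures and 11.2, 7.43 and 19.1 in Th2 cultures, against 25.5, 4.39 and 2.4 in controls. Every M/M array was below every Th2 array, as for 1.11% of all probe sets, with an estimate of -1.05 ± 0.74 and an adjusted p of 0.998 by limma. M95578_at was equal to 1 on all 8 arrays of experiments 1 and 2, which leaves no level to compare there.

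The estimates of the 4 Il1r1 probe sets differed in sign, and their intervals were wide. For M/M cytokines U14010_at had 0.18 ± 0.46, U14010_g_at had -0.19 ± 0.74, M95578_g_at had 1.22 ± 0.63 and M95578_at had 0.15 ± 0.49 as log2 differences from control. Without experiment 3 the estimates of U14010_at, U14010_g_at and M95578_g_at were 0.10, -1.01 and 1.61, and M95578_at gave none because all 8 arrays of experiments 1 and 2 were listed at a signal of 1. With centred arrays of all experiments the 4 estimates were -0.24, -0.62, 0.79 and -0.27. The interval of M95578_g_at was -0.15 to 2.59, with an adjusted p of 0.357 by limma. Its signal was 13.2, 9.7 and 9.7 with M/M cytokines, against 7.53, 1.82 and 7.2 in controls. Every M/M array was thus above every control, as for 7.48% of all probe sets. The control of experiment 2 was the lowest of the 12 arrays.

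Il1r2 encodes the decoy receptor, which binds IL-1 without signalling. Its signal was 43.1, 34.9 and 23.2 in Th1 cultures, 45.1, 38.4 and 56.6 in M/M cultures and 36.3, 40.3 and 33.7 in Th2 cultures, against 42.9, 27.9 and 36.6 in controls. The M/M arrays were above their controls in 3 of 3 experiments, as were 32% of all probe sets, and the estimate was 0.39 ± 0.35 with an interval of -0.36 to 1.13. With centred arrays it was -0.042. The estimates for Th1 and Th2 cytokines were -0.11 ± 0.35 and 0.056 ± 0.35, and -0.27 and -0.16 with centred arrays. Without experiment 3 Il1r2 had 0.16, 0.26 and 0.14 for Th1, M/M and Th2 cytokines.

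The IL-2 receptor beta chain, Il2rb, forms the signalling receptor for IL-2 together with the Il2rg chain and is best known in T cells and natural killer cells. Its signal was 85.8, 102 and 9.0 in Th1 cultures, 109.5, 105 and 36.8 in M/M cultures and 107, 84.7 and 16.3 in Th2 cultures, against 99.3, 99.1 and 18.6 in controls. In experiments 1 and 2 all 8 values lay between 84.7 and 109.5, whereas experiment 3 was several times dimmer, and the experiment accounted for 88.0% of the sum of squares. The estimates against control were -0.40 ± 0.36 for Th1 cytokines, 0.41 ± 0.36 for M/M cytokines and -0.10 ± 0.36 for Th2 cytokines. Without experiment 3 they were -0.0825, 0.12 and -0.059. With centred arrays they were -0.56, -0.023 and -0.32, so that the direction for M/M cytokines turned. Th1 against M/M gave -0.81 ± 0.36 with an unadjusted p of 0.0442, reached by 2.89% of all probe sets, and an adjusted p of 0.903 by limma. That difference was -0.20 ± 0.23 over experiments 1 and 2.

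Markers of astrocytes and oligodendrocytes were bright, with median percentiles on an array of 88.5 to 96.2 and 91.4 to 96.7, and those of microglia were at 57.7 to 73.6. A list of 6 fibroblast genes, all measured, was at 61.2 to 83.8. Its median log2 difference from control was -0.40, 0.56 and -0.60 in Th1 cultures and -0.44, 0.84 and 0.18 in M/M cultures. In Th2 cultures it was -0.42, 0.22 and -0.023. The part of such cells in the receptor values was not tested. The T-cell markers were uneven. The summed signal of 9 measured T-cell genes of 10 listed was 210 to 462 with Th1, 345 to 457 with M/M and 224 to 431 with Th2 cytokines, against 203 to 403 in controls. Their median percentile on an array was between 23.3 and 38.8. In controls Cd3d and Cd2 had 1.7 to 4.17 and 0.8 to 6.11, whereas Lck had 119, 124 and 56.2, Cd8b had 107, 90.65 and 45.9 and Cd4, which rat macrophages also express, had 80.2, 90.9 and 50.5. These sums were lower on each array of experiment 3 than on any array of experiments 1 and 2, as Il2rb was. By rank the 2 were less alike. The median percentile of the T-cell genes was 31.6 to 35.5 in experiments 1 and 2 and 23.3 to 38.8 in experiment 3. Il2rb was at percentiles of 57.9 to 67.4 and of 31.8 to 47.2. The part of T cells in the Il2rb signal was not tested.

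The receptors differed in how much of their variation lay between experiments. The share of the sum of squares between experiments was 5.29% for Il4r, 8.44% for Tnfrsf1a and 12.6% for Il1r2, against 68.7% for Il6r, 71.5% for Ifngr1, 81.8% for Il6st and 88.0% for Il2rb. The median over all probe sets was 58.0%. Between control arrays the highest signal was 1.31 times the lowest for Tnfrsf1a, 1.54 times for Il1r2 and 1.92 times for Il4r. It was 3.74 times for Il6st, 5.34 times for Il2rb, 5.58 times for Il6r and 8.14 times for Ifngr1, where the median over all probe sets was 3.02 times. Mixture and control together accounted for 65.4% of the sum of squares of Il4r and for 5.18% of that of Ifngr1. This last share was not taken over all probe sets. Differences between array medians and the labels of experiment 3 also enter it.

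Genes with the most similar pattern were found by correlating log2 signal, after removal of each experiment's mean, over 12 arrays and among 2709 genes. For Ifngr1 they were Tbxas1, the thromboxane synthase (r = 0.94), and Vsir, an immune checkpoint receptor (r = 0.89). For Il4r they were Mat2a, which makes S-adenosylmethionine (r = 0.97), and Deaf1, a transcription factor (r = 0.96). For Il6st they were the RNA helicase Ddx21 (r = 0.96) and the stress-activated kinase Mapkapk2 (r = 0.95). Among the receptors themselves Il6st and Il4r were the most alike (r = 0.90), followed by Il1r2 and Il2rb (r = 0.83). These values are descriptions over arrays that share scaling and label problems, and the highest of many correlations is large by selection.

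The remaining receptors had Ttr (r = 0.88) and Pcp4 (r = 0.82) nearest to Il1r1, Taf6 (r = 0.95) and Tff3 (r = 0.95) nearest to Il1r2, and Racgap1 (r = 0.93) and Arhgap25 (r = 0.92) nearest to Il6r. Tnfrsf1a had Sult5a1 (r = 0.97) and Lep (r = 0.97), and Il2rb had Emd (r = 0.97) and Cyp4f4 (r = 0.96).

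Other receptor chains for the added cytokines were measured for 6 of 15 listed genes, and none passed the test against control for any mixture. Their median log2 difference was 0.31 for Th1 cytokines, 0.65 for M/M cytokines and 0.30 for Th2 cytokines. Csf2rb, the signal-carrying chain of the IL-5 receptor, had 222, 309 and 127 in Th1 cultures, 347, 367 and 178 in M/M cultures and 248, 257 and 78.7 in Th2 cultures, against 189, 86.7 and 54.7 in controls. Each treated array was above its own control, as 14%, 32% and 25% of all probe sets were for Th1, M/M and Th2 cytokines taken singly. The estimate for M/M cytokines was 1.55 ± 0.29 with an adjusted p of 0.0512 by limma, and it was 1.12 with centred arrays and 1.48 without experiment 3. Tgfbr3, a co-receptor for TGF-beta, had estimates of 0.75 for Th1 cytokines, 1.15 for M/M cytokines and 1.10 for Th2 cytokines, and Tnfrsf1b, the other TNF receptor, had 0.18, 0.53 and 0.18. Without experiment 3 Tgfbr3 had 0.54, 0.87 and 0.77 and Tnfrsf1b had 0.32, 0.51 and 0.105, and with centred arrays the Th2 value of Tnfrsf1b was -0.030.

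Related receptors with other ligands were measured for 12 of 19 genes, with median differences of 0.30, 0.65 and 0.33 and no call. Tnfrsf11b encodes osteoprotegerin, a soluble decoy receptor of the TNF receptor family. It had 52.1, 36.6 and 72.5 in Th1 cultures, 196, 62.3 and 62.5 in M/M cultures and 257, 44.1 and 157 in Th2 cultures, against 34.7, 6.3 and 36.5 in controls. Every treated array was above its control, as 14%, 32% and 25% of all probe sets were for Th1, M/M and Th2 cytokines taken singly. The estimates were 1.37 for Th1 cytokines, 2.19 for M/M cytokines and 2.60 for Th2 cytokines, with an adjusted p of 0.857, 0.074 and 0.228 by limma. These were 1.56, 2.90 and 2.85 without experiment 3. Il9r had 0.44, 1.98 and 1.16, and the nerve growth factor receptor Ngfr had -0.039, 0.68 and -0.032. Without experiment 3 Il9r had 0.92, 1.40 and 0.88, and Ngfr had 0.20, 0.61 and 0.034, which turned its direction for Th1 and Th2 cytokines.

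Transcripts of the ligands were measured for 15 of 16 genes, with medians of 0.31, 0.58 and 0.54 and no call over all arrays. Il1b, a ligand of the IL-1 receptors, had 1347, 753 and 110.3 in Th1 cultures, 2544, 1145 and 791 in M/M cultures and 97.6, 48.3 and 2145 in Th2 cultures, against 98.5, 26.9 and 53.4 in controls. The 2145 is the experiment 3 array labelled Th2. In experiments 1 and 2 alone Il1b rose by 4.29 with Th1 (adjusted p = 0.00634 by limma) and by 5.05 with M/M cytokines (adjusted p = 0.00268 by limma), whereas its estimate for Th2 cytokines was 0.42. Il6 had 2.45 for Th1 cytokines, 3.79 for M/M cytokines and 3.32 for Th2 cytokines over all arrays, and Il15 had 0.83, 1.38 and 0.54. Without experiment 3 Il6 had 1.75, 3.69 and 2.12 and Il15 had 1.24, 1.11 and 0.77. The Il6 signal was 123, 9.82 and 104 in Th2 cultures, against dim controls of 6.45, 9.87 and 2. The Th2 array of experiment 2 was thus not above its control.

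Signal transducers of the receptors were measured for 15 of 24 genes, with medians of 0.63 for Th1 cytokines, 1.03 for M/M cytokines and 0.50 for Th2 cytokines and no call over all arrays. Nfkb1, a subunit of NF-kappaB, had 1.46, 2.27 and 1.06, with an adjusted p of 0.0676 by limma for M/M cytokines. Without experiment 3 it rose by 2.01 with Th1 (adjusted p = 0.0198 by limma) and by 2.15 with M/M cytokines (adjusted p = 0.0221 by limma). The gp130-activated factor Stat3 had 0.96, 1.91 and 1.20, and Socs3, a feedback inhibitor of gp130, had 0.63, 1.66 and 1.40. Without experiment 3 the values were 1.21, 1.55 and 0.77 for Stat3 and 0.64, 1.47 and 1.22 for Socs3.

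Genes known to respond to the added cytokines were examined last. Of the 11 genes measured for IL-1 and TNF, of 13 listed, 2 rose with M/M cytokines over all arrays, where 0.263% of all probe sets rose and passed. These were Ccl2, by 2.74 ± 0.35 (adjusted p = 0.015 by limma), and the mitochondrial superoxide dismutase Sod2, by 2.51 ± 0.40 (adjusted p = 0.0251 by limma). With centred arrays the estimates were 2.31 and 2.09 and neither passed. Both passed without experiment 3, at 2.76 and 2.48, with an adjusted p of 0.0255 and 0.00284 by limma. Over experiments 1 and 2, 6 of the 11 rose with Th1 and 7 with M/M cytokines, where 0.641% and 0.389% of all probe sets rose and passed. Of 9 interferon-gamma response genes of 17 listed, 0 were called over all arrays, whereas over experiments 1 and 2 there were 6 that rose with Th1 and 1 that rose with M/M cytokines, beside the same 0.641% and 0.389% of all probe sets. The TGF-beta response list held 9 symbols, of which Ctgf and Ccn2 name the same gene, and 6 genes were measured. Among these, Junb rose by 2.53 ± 0.37 with M/M cytokines (adjusted p = 0.0251 by limma). The call was lost without experiment 3 (2.44, adjusted p = 0.118 by limma) and with centred arrays (2.10, adjusted p = 0.0933 by limma). Junb is also an immediate early gene that many stimuli induce.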

How the data were processed

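RNA of 12 rat glial cultures was hybridized to 1 array each. The intensity values deposited are linear probe-set signals that the authors calculated with dChip, and its settings and any normalization between arrays are not given in the sources used here. The values deposited for experiment 3 have at most 1 decimal and more signals below 1 than those of the other experiments. Of 8799 probe sets, 59 controls were left out. A floor of 0.1 was applied to the signals, which were then taken to log2 without rescaling. Symbols come from the annotation of the array (7006 probe sets with 1 symbol, 308 with several, 1426 with none).

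Mixtures and control were compared by limma 3.58.1 (R 4.3.3) with a variance trend (6 residual and 6.94 prior degrees of freedom) and Benjamini-Hochberg adjustment over 8740 probe sets. Experiment was a block, since the title code ties 1 culture of each group to it and the methods compare within experiments. Arrays of 1 experiment correlated at 0.439 to 0.708 after removal of group means, and arrays of different experiments at -0.84 to 0.357. Removal of group means itself lowers the correlations between experiments, so that part of this contrast is built in. The p-values measure the spread between these cultures. Their number limits the precision. All receptor probe sets are named, with up to 3 genes of each list by lowest unadjusted p unless some passed, and the 2 genes most correlated with each receptor. Receptors and lists were chosen with earlier results of these data known. The scripts were tested on simulated data. Sequences and positions are those of RefSeq, GRCr8, while the array names no build. Alternatives were centring, quantile normalization, an offset of 16, leaving out the dimmest 25%, no trend, other block terms, leaving out experiments or arrays, and the methods' criteria (over 2-fold, analysis of variance p under 0.2).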

Additional observations from a re-analysis of the deposited data

How the results depend on the processing

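No receptor probe set was called in any of the 6 comparisons when arrays were centred or quantile normalized over all experiments, with an offset of 16, without the dimmest probe sets, without a variance trend, or when an experiment or a single array was left out (0 to 0). The fit without the replicate block and that with a random replicate block gave 0 calls as well. With 1 array of each group in each experiment these fits give the same estimates, so that no direction could turn. Centring together with experiments 1 and 2 alone, added after the data were seen, gave 1 call (Ifngr1) in each of Th1 and M/M against control and Th1 and M/M against Th2. The methods' criteria gave 1 for M/M against control (Il1r1 M95578_g_at) and 1 for M/M against Th2 (Il1r1 U14010_g_at), where 6.35% of all probe sets met them upward and 0.847% downward. M95578_at has no value without experiment 3, since it was at 1 on all those arrays. Directions turned as follows. Centring gave, for Th1, Tnfrsf1a -0.16 and Il1r1 U14010_g_at -0.039. For M/M it gave Il2rb -0.023, Il6r -0.21, Tnfrsf1a -0.052, Il1r2 -0.042, Il1r1 M95578_at -0.27 and U14010_at -0.24, and for Th2 Ifngr1 -0.14 and Il1r2 -0.16. Quantile normalization gave, for Th1, Tnfrsf1a -0.16, M95578_at 0.054 and U14010_g_at -0.054. For M/M it gave Il6r -0.23, Il1r2 -0.063, M95578_at -0.032 and U14010_at -0.19, and for Th2 Ifngr1 -0.032 and Il1r2 -0.19. The offset gave U14010_g_at -0.057 for Th1. Centred experiments 1 and 2 gave, for Th1, Tnfrsf1a -0.17, U14010_at -0.019 and U14010_g_at -0.24. For M/M they gave Il2rb -0.20, Il6r -0.11, Tnfrsf1a -0.14, Il1r2 -0.053 and U14010_at -0.21, and for Th2 Ifngr1 -0.11, Il1r2 -0.12, U14010_at -0.24 and U14010_g_at -0.48. Centring lowered each estimate against control by the mean shift of the array medians, although the shift of a single array went either way. The cause of the other turns was not tested. Leaving out an experiment or an array turned 37 of 294 estimates. For Th1 the range was -1.11 to 0.25 for Ifngr1, -0.74 to 0.077 for Il6r, -0.18 to 0.15 for Tnfrsf1a, -0.33 to 0.17 for Il1r2, -0.17 to 0.16 for M95578_at, -0.61 to 1.43 for M95578_g_at and -0.58 to 0.98 for U14010_g_at. For M/M it was -0.21 to 0.65 for Il6r, -0.0063 to 0.62 for Il2rb, -0.090 to 0.54 for U14010_at and -1.01 to 0.66 for U14010_g_at. For Th2 it was -0.30 to 0.56 for Ifngr1, -0.18 to 0.21 for Il1r2, -0.070 to 1.32 for M95578_g_at and -0.22 to 1.88 for U14010_g_at. Il4r and Il6st kept their direction for all 3 mixtures under every alternative. Dim probe sets such as those of Il1r1 limit what can be seen of a change.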
